A study of Mus musculus with 12 samples.

Results

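The p53 and GADD45 stress targets are 10 genes that cells switch on under stress: Cdkn1a, Btg2, Mdm2, Ccng1, Sesn2, Trp53inp1, Phlda3, Gadd45a, Gadd45b and Gadd45g. They were chosen by symbol from a table of 50643 genes, and all 10 were present and held enough counts to be tested, as did 16694 genes in all. The table covers 12 RNA-seq libraries of natural killer (NK) cells, lymphocytes of the innate immune system that destroy infected cells and release cytokines, taken from the spleens of C57BL/6 mice by negative isolation, which removes other cells. There were 4 groups of 3 libraries: Mirc11-/- mice (here knockout) challenged with Listeria, an intracellular bacterium, wild-type mice challenged in the same way, knockout mice without challenge and wild-type mice without challenge. Mirc11 is a cluster of microRNA genes, Mir23a, Mir27a and Mir24-2, and the title of the series concerns its control of the inflammatory response of NK cells. How the challenge was given, at what dose and for how long, the age and sex of the mice, and whether the deletion was confined to a cell type were not given in the sources used here. Replicates are labelled as biological, without a statement that each came from its own animal, so p-values measure the spread between these libraries.

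p53 is a transcription factor that is kept scarce by Mdm2, a ubiquitin ligase that marks it for destruction, and that accumulates when DNA is damaged or growth signals conflict. Its targets stop the cell cycle, restrain growth signalling, promote autophagy or start apoptosis, and they include Mdm2 itself, which closes a feedback loop. The GADD45 proteins bind the kinase MEKK4 (gene Map3k4) and so switch on the p38 and JNK kinases, and in T cells Gadd45b and Gadd45g support interferon-gamma production. Several of these genes also answer to other signals: Gadd45b is a target of NF-kB, and Cdkn1a, Btg2 and the GADD45 genes are induced by cytokines, growth factors or stress kinases without p53.

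Libraries held 17624530 to 23665679 counts. Each of the Mirc11 precursors had 0 counts in every library, which checks nothing, since polyA libraries do not retain RNAs this short. Gm26532, a transcript beside the cluster, measured 0.887, 0.984 and 2.7 CPM (counts scaled by the library total) in challenged knockout libraries, against 2.34 to 4.27 CPM in challenged wild-type libraries. It measured 0.113 to 0.498 CPM in unchallenged knockout libraries, against 2.35 to 4.88 CPM in unchallenged wild-type libraries, so challenged knockout replicate 3 stood inside the wild-type range for this transcript. Gm37352, on the other side of the cluster, measured 29.7 to 61.4 CPM in the 6 knockout libraries and 3.06 to 6.76 CPM in the 6 wild-type libraries. Xist, the RNA of the inactive X chromosome, measured 526 to 1030 CPM in challenged knockout, 1150 to 1460 CPM in challenged wild-type, 0.362 to 1.08 CPM in knockout without challenge and 1200 to 2020 CPM in wild-type libraries without challenge. The Y-linked Ddx3y measured 44.1 to 80.5 CPM in challenged knockout and at most 0.133 CPM in challenged wild-type libraries. Without challenge, Ddx3y measured 83.6 to 135 CPM in knockout libraries and 0.0546, 0.102 and 34.6 CPM in wild-type replicates 2, 3 and 4. Every challenged knockout library and unchallenged wild-type replicate 4 thus held both Xist, at 526 CPM or more, and Ddx3y, at 34.6 CPM or more. Sex therefore cannot be told apart from genotype, or from challenge within the knockout, in these data. The 12 NK cell markers, none at 0 in any group, summed to 6820 to 10100 CPM, above 10 T cell markers (205 to 362 CPM) and 10 B cell markers (1080 to 1780 CPM). The sum of 12 erythroid markers was above that of the NK cell markers in every group but challenged wild-type. Group names follow the labels throughout, and results without challenged knockout replicate 3 and unchallenged wild-type replicate 4, the libraries in doubt, are given where a call changed. Leaving them out does not settle the matter, since the remaining challenged knockout libraries also hold both Xist and Ddx3y.

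The mature microRNAs encoded by the cluster are shown here because the knockout is named for its deletion, although their loss was not measured in these libraries. They lie on the plus strand of chromosome 8 (GRCm38), at 84208563 to 84208583, 84208727 to 84208747 and 84208875 to 84208896, and are given as RefSeq records them (GRCm38.p6), with the seed, bases 2 to 8, in capitals.
mmu-miR-23a-3p: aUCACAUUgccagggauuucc
mmu-miR-27a-3p: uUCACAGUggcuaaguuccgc
mmu-miR-24-3p: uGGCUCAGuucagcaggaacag
RefSeq records the same mature miR-24-3p also for Mir24-1, a gene outside the cluster on chromosome 13. Only whole mature sequences were compared here, so other microRNAs that share a seed with these were not looked for. The 3 seeds differ from each other. Each was looked up in the longest annotated 3′ UTR of each gene (GENCODE vM21) on the transcript strand as the complement of its seed, AATGTGA for miR-23a, ACTGTGA for miR-27a and CTGAGCC for miR-24. At least 1 match was present in 4 of the 10 genes, Sesn2, Ccng1, Trp53inp1 and Btg2, against 40.6% of 13480 UTRs in all. Sesn2 held all 3, as did 220 of the 13480 UTRs (1.63%). The other 6 genes, Cdkn1a, Mdm2, Phlda3, Gadd45a, Gadd45b and Gadd45g, held none of these letters in UTRs of 489 to 1335 bases, against a median of 1161 bases over all UTRs. The matches are printed with their surroundings, the match in capitals, and each position is its first capital counted from the start of the UTR.
Sesn2, chromosome 4, miR-23a, position 507: cacccatcAATGTGAaagttgga
Sesn2, chromosome 4, miR-24, position 922: aaaaaaacCTGAGCCtttcttag
Sesn2, chromosome 4, miR-27a, position 1284: agcaaacaACTGTGAattctgat
Ccng1, chromosome 11, miR-23a, position 383: caacaagcAATGTGAcccatata
Ccng1, chromosome 11, miR-23a, position 1304: aagacataAATGTGAaataaaac
Ccng1, chromosome 11, miR-27a, position 1317: gaaataaaACTGTGAaccttcat
Trp53inp1, chromosome 4, miR-23a, position 3629: tctcttgaAATGTGAcaccaatt
Btg2, chromosome 1, miR-27a, position 372: ggttagcaACTGTGAatgagagg
A match is a description of letters and does not show that the microRNA acts there.

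Levels of the 10 transcripts differed widely per length of exon, the scale on which genes can be compared. Btg2 had the highest mean in every group, at 133 ± 14.3 CPM per kb in challenged knockout and 76.3 ± 5.19 in challenged wild-type libraries, and 148 ± 2.14 in unchallenged knockout and 137 ± 14.4 in unchallenged wild-type libraries (SD, n = 3 each). Phlda3 was the least abundant in every group, at 1.21 ± 0.241 CPM per kb in challenged knockout and 2.64 ± 0.646 in challenged wild-type libraries, and 0.992 ± 0.187 in unchallenged knockout and 1.28 ± 0.213 in unchallenged wild-type libraries, and it had only 25 to 113 counts in a library. Without challenge, Cdkn1a was next to last, at 1.7 ± 0.268 CPM per kb in knockout and 1.41 ± 0.208 in wild-type libraries, where it overlapped Phlda3. After challenge it stayed at place 9 of 10 in knockout libraries with 5.45 ± 1.03 CPM per kb, but stood at place 5 in wild-type libraries with 25.4 ± 2.95. Libraries overlapped for 14 of the 36 pairs of neighbours in these orders, so those places are not settled. Among them were Cdkn1a and Sesn2 in challenged knockout libraries, and Btg2 and Gadd45b, Cdkn1a and Mdm2, and Mdm2 and Trp53inp1 in challenged wild-type libraries.

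**Figure D1:**
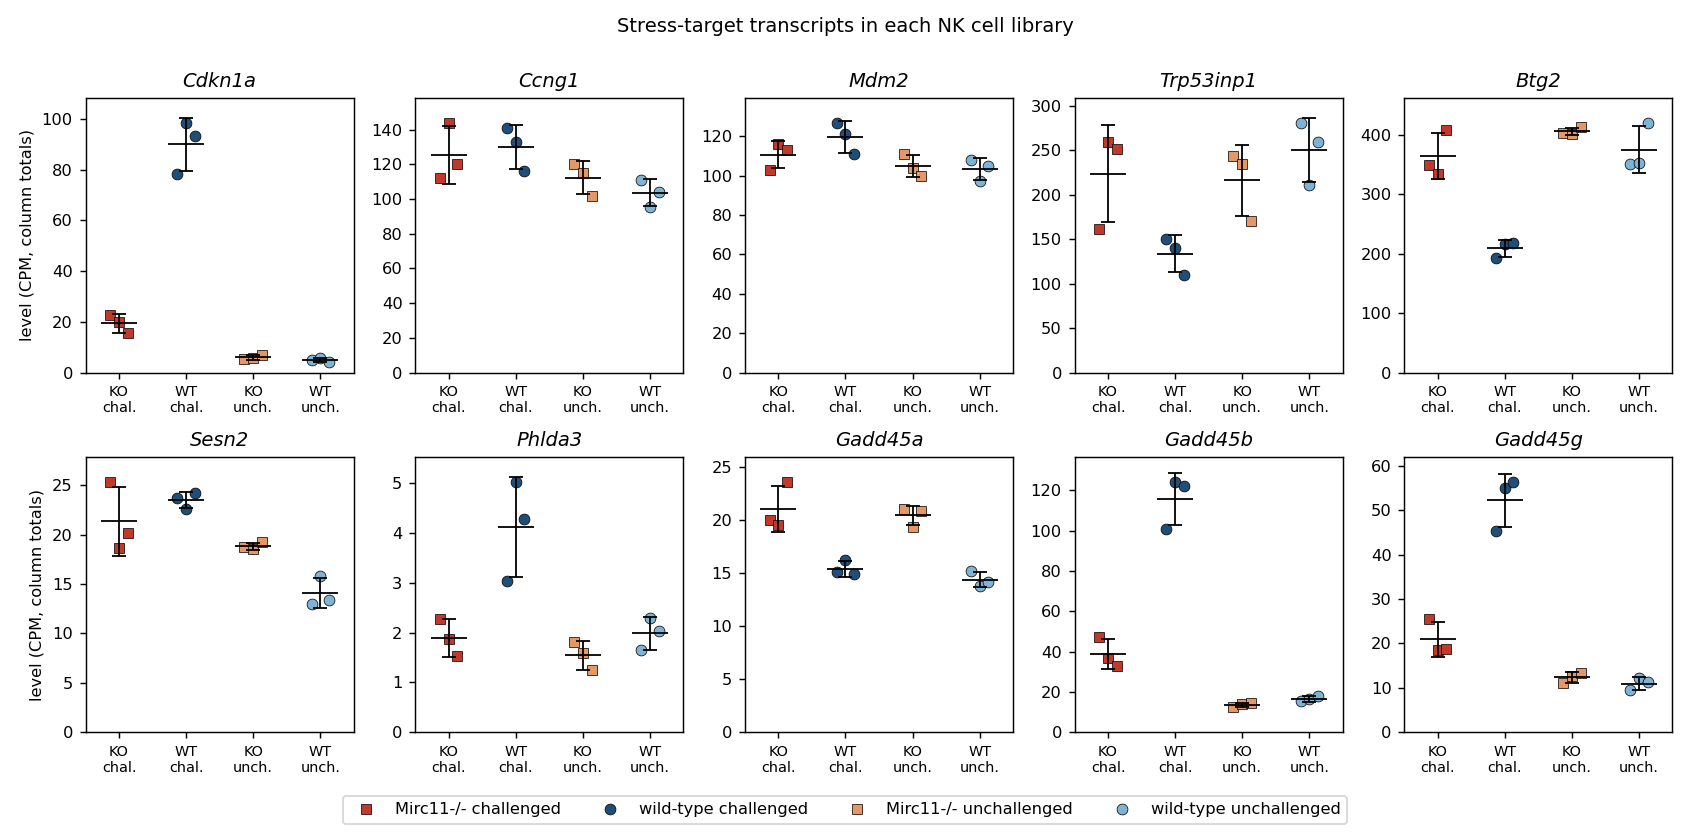
Level of each stress target in CPM (vertical axis, starting at 0) in every library, with the mean (long line) and SD (error bar) of the 3 libraries of each group. Cdkn1a stood at 78.4 to 98.6 CPM in challenged wild-type libraries and at 22.8 CPM or less in every other library, whereas Btg2 was lowest in challenged wild-type libraries, at 193 to 219 CPM.

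In wild-type mice the challenge raised 7 of the 10 transcripts and lowered 2. Cdkn1a rose 19.3-fold, Gadd45b 7.51-fold and Gadd45g 5.12-fold, and smaller rises were seen for Phlda3, Sesn2, Ccng1 and Mdm2. Trp53inp1 and Btg2 fell. Of all tested genes 63.4% were called in this comparison, 32.4% higher and 30.9% lower, at an adjusted p under 0.05 by edgeR's quasi-likelihood F test (5411 and 5166 genes, or 4634 and 6184 under upper-quartile scaling). The median log2 fold change of the 10 was 0.64, against -0.01 over all tested genes. The challenged and unchallenged wild-type libraries did not overlap for the same 7 transcripts higher and 2 lower, as was so for 70.3% of all tested genes, 30.1% higher and 40.2% lower.

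In knockout mice the challenge raised 3 of the 10, Cdkn1a 3.19-fold, Gadd45b 2.84-fold and Gadd45g 1.69-fold, and lowered none, neither at an adjusted p under 0.05 by edgeR or DESeq2 nor at an unadjusted p under 0.05. The background was smaller here as well, with 27% of all tested genes called, 15.6% higher and 11.5% lower (2596 and 1915 genes, or 2263 and 2583 under upper-quartile scaling). The median of the 10 was 0.16, against -0.01 over all tested genes. Non-overlapping libraries were found for the same 3, against 39.3% of all tested genes, 20.9% higher and 18.4% lower. Both challenge comparisons come from the same fit, and the difference between them was tested for each gene as the knockout response minus the wild-type response. By that test the response was lower in knockout for Cdkn1a, Gadd45b, Gadd45g and Sesn2 and higher for Btg2 and Trp53inp1, where 35.2% of all tested genes were called, 18.5% lower and 16.7% higher (3085 and 2791 genes, or 2380 and 3836 when libraries were scaled by column totals only). The median difference of the 10 was -0.48, against 0 over all tested genes. Under that scaling, and under upper-quartile scaling, the median of all genes in the wild-type response moved to -0.11 and -0.12.

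**Figure D2:**
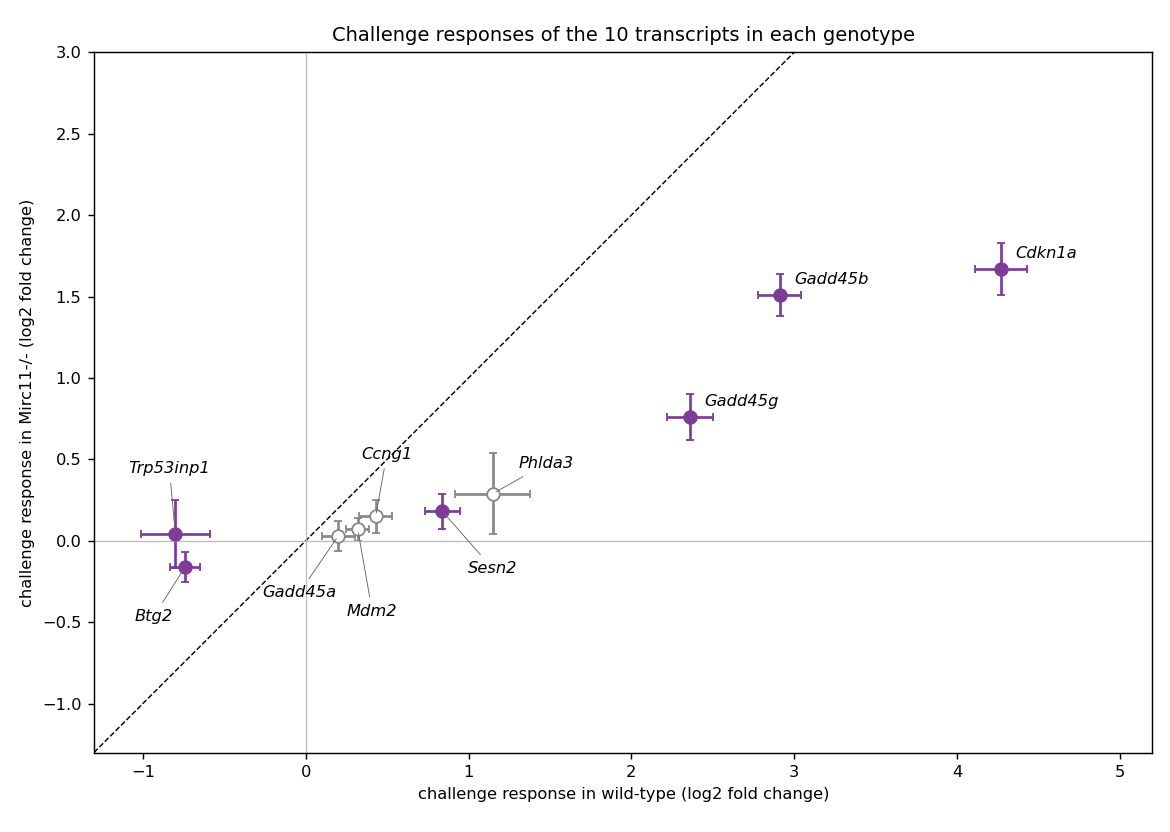
Challenge response of each stress target as log2 fold change with its standard error, in wild-type (horizontal axis) and in Mirc11-/- libraries (vertical axis). The dashed line marks equal responses, and filled points are the 6 genes with a called difference between the responses; Cdkn1a lies at 4.27 in wild-type and 1.67 in knockout, below the line.

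Markers of NK cells and of other cells moved with the same contrasts, and their counts are read beside those of all tested genes. Of all tested genes, 15.6% rose and 11.5% fell with challenge in knockout, against 32.4% and 30.9% in wild-type. The response was lower in knockout for 18.5% and higher for 16.7%. After challenge 25.9% were lower in knockout and 22.7% higher. The NK cell markers summed to 7220 to 7580 CPM in challenged knockout and 6820 to 6970 CPM in challenged wild-type libraries, and to 9460 to 9510 CPM in unchallenged knockout and 8920 to 10100 CPM in unchallenged wild-type libraries. With challenge, 11 of the 12 fell and 1 rose in knockout (median log2 fold change -0.46), against 9 that fell and 2 that rose in wild-type (median -1.5). After challenge 7 were higher and 2 lower in knockout (median 1.07), against a median of 0.05 without challenge. The summed level of 14 neutrophil markers was 1060 to 1550 CPM in challenged knockout and 2080 to 2450 CPM in challenged wild-type libraries, and 555 to 576 CPM in unchallenged knockout and 92.9 to 98.2 CPM in unchallenged wild-type libraries, and all 14 had a lower response in knockout. The 15 macrophage and monocyte markers summed to 1390 to 1720 CPM in challenged knockout and 1840 to 2090 CPM in challenged wild-type libraries, and to 1270 to 1310 CPM in unchallenged knockout and 1140 to 1170 CPM in unchallenged wild-type libraries. The 12 erythroid markers summed to 20300 to 25300 CPM in challenged knockout and 1850 to 2420 CPM in challenged wild-type libraries, and to 37100 to 41700 CPM in unchallenged knockout and 11800 to 13800 CPM in unchallenged wild-type libraries. The neutrophil and macrophage sums were thus highest, and the erythroid sum lowest, in challenged wild-type libraries. The T cell markers summed to 324 to 360 CPM in challenged knockout and 205 to 211 CPM in challenged wild-type libraries, and to 235 to 259 CPM in unchallenged knockout and 325 to 362 CPM in unchallenged wild-type libraries, and all 10 had a higher response in knockout (median difference 1.09). The 8 platelet markers summed to 340 to 391 CPM in challenged knockout and 351 to 412 CPM in challenged wild-type libraries, and to 268 to 284 CPM in unchallenged knockout and 536 to 728 CPM in unchallenged wild-type libraries, and 7 had a higher response in knockout (median difference 2.34). The 11 stromal and endothelial markers summed to 166 to 276 CPM over the 12 libraries. Of these, 8 rose and 1 fell in wild-type, with a median response of 0.2 in knockout and 0.87 in wild-type. Of the 10 B cell markers 8 rose in each genotype and 1 fell in wild-type. The response was higher in knockout for 3 and lower for none, so 30% were called, against 35.2% of all tested genes. No marker of these lists was at 0 in any group. Their part in the changes of the stress targets was not tested. In these bulk libraries a change in how many cells of a type were present and a change in RNA per cell cannot be told apart.

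Cdkn1a encodes p21, the inhibitor of cyclin-dependent kinases through which p53 arrests the cell cycle, and lies on chromosome 17 at 29090976 to 29100727, plus strand. It measured 22.8, 19.8 and 15.5 CPM in challenged knockout libraries, against 78.4, 98.6 and 93.4 CPM in challenged wild-type libraries. Without challenge it measured 5.22, 5.79 and 7.08 CPM in knockout libraries, against 5.13, 5.68 and 4.22 CPM in wild-type libraries. The unchallenged groups overlapped, whereas all challenged knockout libraries lay below all challenged wild-type libraries and above all unchallenged ones. The challenge response was 1.67 ± 0.16 on the log2 scale in knockout (SE, edgeR adjusted p = 1.97e-06), against 4.27 ± 0.16 in wild-type (adjusted p = 1.03e-11). The difference between them was -2.6 ± 0.22 (adjusted p = 6.32e-07). After challenge the knockout level was 0.202 times that of wild-type (-2.31 ± 0.14, adjusted p = 5.81e-09), and without challenge the difference was 0.29 with a 95% interval of -0.09 to 0.67. The unnamed transcript AC167363.2 overlaps exons of Cdkn1a on the opposite strand and has no values here, and the strand setting of the counting was not given in the sources used here, so its reads cannot be separated.

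RefSeq windows run from 250 bases before a transcription start to 50 after. Cdkn1a has more than 1, at chr17:29090729-29091028 and, downstream, at chr17:29093519-29093818. The upstream window holds a p53 motif of 20 letters with at most 1 mismatch, found in 29 of 32851 promoter windows (0.0883%). The downstream window does not hold it. Among the stress targets it was found in Cdkn1a and Ccng1, out of 9 with a window, and both are printed because these genes differed in size of response. The motif is in capitals and its first base is counted from the transcription start.
Cdkn1a, chr17:29090923-29090952, plus strand, motif from -51: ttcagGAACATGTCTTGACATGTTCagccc
Ccng1, chr11:40755457-40755486, minus strand, motif from -195: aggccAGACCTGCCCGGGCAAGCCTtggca
The shorter motif of 10 letters that makes up each side of it was found in Cdkn1a, Ccng1, Mdm2 and Gadd45a, and in 8.36% of all windows. The kappaB motif, the AP-1 motif TGANTCA and the GAS motif TTCNNNGAA were found in none of the 9, against 4.51%, 7.81% and 8.3% of all windows. Both strands were searched, and a missing match says only that the letters are not in this window. The response in wild-type was 4.27 for Cdkn1a and 0.43 for Ccng1, and a window of each holds the 20-letter motif. The part of the motif in these responses was not tested.

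Btg2 encodes an antiproliferative protein that recruits the CCR4-NOT deadenylase to messenger RNAs, and lies on chromosome 1 at 134075170 to 134079120, minus strand. It measured 350, 335 and 409 CPM in challenged knockout libraries, against 193, 216 and 219 CPM in challenged wild-type libraries. In unchallenged mice it measured 404, 402 and 413 CPM in knockout libraries, against 352, 353 and 421 CPM in wild-type libraries. The challenged wild-type libraries were the lowest of all, and the other 3 groups overlapped, except that challenged and unchallenged knockout libraries met only in challenged replicate 3. Btg2 fell by 0.74 ± 0.09 on the log2 scale in wild-type (edgeR adjusted p = 3.29e-06), against a knockout response of -0.16 ± 0.09 that did not pass (adjusted p = 0.196). Without the libraries in doubt the knockout response passed, at -0.26 (adjusted p = 0.02). The difference between the responses was 0.58 ± 0.13 (adjusted p = 0.00228), and after challenge Btg2 was 1.63-fold higher in knockout (0.71 ± 0.09, adjusted p = 1.08e-05). Its promoter window holds the cyclic AMP response element TGACGTCA, as do 1.79% of all windows, with its first base at -166.
Btg2, chr1:134079304-134079331, minus strand: ttcccaataaTGACGTCAgtgagcgatg

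Mdm2 and Ccng1, the feedback genes, moved little. Mdm2 lies on chromosome 10 at 117688875 to 117710758, minus strand, and Ccng1, which encodes cyclin G1, a partner of protein phosphatase 2A, on chromosome 11 at 40748552 to 40755311, minus strand. Mdm2 measured 103, 116 and 113 CPM in challenged knockout libraries, against 127, 121 and 111 CPM in challenged wild-type libraries. Without challenge the values were 111, 104 and 99.8 CPM in knockout libraries, against 108, 97.3 and 105 CPM in wild-type libraries. Only the challenged wild-type libraries stood above the unchallenged ones of their genotype. Mdm2 rose 1.25-fold in wild-type (log2 0.32 ± 0.07, edgeR adjusted p = 0.000963), and the knockout response was 0.07 with a 95% interval of -0.08 to 0.22. After challenge it was lower in knockout (-0.21 ± 0.07, adjusted p = 0.0213) although the groups overlapped, and the call was lost in 8 of 20 alternatives, among them upper-quartile scaling (adjusted p = 0.131) and the omission of challenged knockout replicate 1 (-0.14, adjusted p = 0.116) or 3 (-0.2, 0.0552) or challenged wild-type replicate 1 (-0.16, 0.093) or 2 (-0.18, 0.0989).

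Ccng1 measured 112, 144 and 120 CPM in challenged knockout libraries, against 141, 133 and 116 CPM in challenged wild-type libraries. Levels without challenge were 120, 115 and 102 CPM in knockout libraries, against 111, 95.5 and 104 CPM in wild-type libraries. The genotypes overlapped both with and without challenge. Ccng1 rose 1.35-fold in wild-type (log2 0.43 ± 0.1, edgeR adjusted p = 0.00111), and the knockout response was 0.15 with an interval of -0.06 to 0.35. The difference between the responses was -0.29 (adjusted p = 0.12), or -0.38 without challenged knockout replicate 2 (adjusted p = 0.0322), the highest of the 12 libraries. For Mdm2 the difference was -0.25 (adjusted p = 0.0623), or -0.3 without challenged wild-type replicate 3 (adjusted p = 0.0314).

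Sesn2, Trp53inp1 and Phlda3 act on metabolism and growth signalling. Sesn2 encodes sestrin 2, which restrains the growth kinase mTORC1 when nutrients are short, and lies on chromosome 4 at 132492032 to 132510501, minus strand. It measured 25.3, 18.6 and 20.2 CPM in challenged knockout libraries, against 23.7, 22.6 and 24.2 CPM in challenged wild-type libraries. Without challenge it measured 18.7, 18.5 and 19.2 CPM in knockout libraries, against 13, 15.8 and 13.4 CPM in wild-type libraries. The unchallenged knockout libraries all stood above the unchallenged wild-type ones, and the challenged groups overlapped through challenged knockout replicate 1. Sesn2 rose 1.79-fold in wild-type (log2 0.84 ± 0.11, edgeR adjusted p = 1.03e-05), and the knockout response was 0.18 with an interval of -0.06 to 0.42. The difference between the responses was -0.66 ± 0.16 (adjusted p = 0.0043), with values of -0.8 to -0.55 over the alternatives. Without challenge Sesn2 was 1.35-fold higher in knockout (0.43 ± 0.12, adjusted p = 0.0215). That call was lost in 6 of 20 alternatives, on omission of unchallenged knockout replicate 2, 3 or 4 (adjusted p = 0.0572, 0.0592 and 0.0716), of unchallenged wild-type replicate 2 or 4 (0.0886 and 0.0817), or of both libraries in doubt (0.0929). After challenge the genotype difference was -0.23 (adjusted p = 0.0966), or -0.35 (adjusted p = 0.00719) without challenged knockout replicate 1.

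Trp53inp1 encodes a p53-induced nuclear protein that takes part in autophagy, and lies on chromosome 4 at 11156431 to 11174379, plus strand. It was the noisiest of the abundant transcripts, at 161, 259 and 251 CPM in challenged knockout libraries, against 150, 140 and 110 CPM in challenged wild-type libraries. In unchallenged mice it measured 243, 235 and 170 CPM in knockout libraries, against 281, 211 and 259 CPM in wild-type libraries. The challenged wild-type libraries were the lowest of all 12. Trp53inp1 fell by 0.8 ± 0.21 on the log2 scale in wild-type (edgeR adjusted p = 0.00652), and the knockout response was 0.04 with an interval of -0.42 to 0.5. After challenge it was 1.56-fold higher in knockout (0.65 ± 0.21, adjusted p = 0.0262), a call lost in 5 of 20 alternatives, among them the omission of challenged knockout replicate 2 (adjusted p = 0.0873) or 3 (0.074), challenged wild-type replicate 3 (0.0855) or both libraries in doubt (0.106). The difference between the responses was 0.84 ± 0.29 (adjusted p = 0.0479), a call lost in 12 of 19 alternatives, with adjusted p up to 0.165 and values of 0.7 to 1.04. Among these were the omission of challenged knockout replicate 2 or 3, unchallenged knockout replicate 3 or 4, challenged wild-type replicate 2 or 3, and unchallenged wild-type replicate 2 or 4. Omission of both libraries in doubt also lost the call (0.71, adjusted p = 0.165).

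Phlda3 encodes a small protein that competes with the kinase Akt for membrane lipids, and lies on chromosome 1 at 135766119 to 135769136, plus strand. It measured 2.28, 1.87 and 1.53 CPM in challenged knockout libraries, against 3.03, 5.02 and 4.29 CPM in challenged wild-type libraries. Without challenge the values were 1.82, 1.58 and 1.24 CPM in knockout libraries, against 1.64, 2.3 and 2.03 CPM in wild-type libraries. Only the challenged wild-type libraries stood apart. Phlda3 rose 2.21-fold in wild-type (log2 1.15 ± 0.23, edgeR adjusted p = 0.000421), against 0.29 ± 0.25 in knockout (adjusted p = 0.428), and after challenge the knockout level was 0.434 times that of wild-type (-1.2 ± 0.22, adjusted p = 0.000411). The difference between the responses was -0.85 ± 0.34 and did not pass (adjusted p = 0.0635), but it passed without challenged knockout replicate 1 (-1, adjusted p = 0.0351), unchallenged knockout replicate 4 (-0.99, 0.0479) or challenged wild-type replicate 1 (-1.03, 0.0224).

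The 3 GADD45 genes did not move together. Gadd45b and Gadd45g rose with challenge in both genotypes, less so in knockout, whereas the response of Gadd45a passed in neither genotype. Gadd45a instead differed between the genotypes, and was higher in knockout both with and without challenge. Gadd45a lies on chromosome 6 at 67035096 to 67037457, minus strand, Gadd45b on chromosome 10 at 80930073 to 80932204, plus strand, and Gadd45g on chromosome 13 at 51846678 to 51848468, plus strand. The promoter windows of Gadd45b and Gadd45g hold the letters TATAAA, as do 8.32% of all windows, and that of Gadd45a does not.

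Gadd45b measured 47, 36.7 and 32.6 CPM in challenged knockout libraries, against 101, 124 and 122 CPM in challenged wild-type libraries. Levels without challenge were 12.4, 13.8 and 14.5 CPM in knockout libraries, against 15.2, 16.4 and 18.1 CPM in wild-type libraries. The genotypes did not overlap in either state. The challenge response was 1.51 ± 0.13 on the log2 scale in knockout (edgeR adjusted p = 1.11e-06), against 2.91 ± 0.13 in wild-type (adjusted p = 8.46e-11), a difference of -1.4 ± 0.18 (adjusted p = 3.71e-05). After challenge the knockout level was 0.314 times that of wild-type (-1.67 ± 0.12, adjusted p = 5.46e-08). Without challenge the difference was -0.27, with an interval of -0.57 to 0.03, and did not pass (adjusted p = 0.276).

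Gadd45g measured 25.5, 18.6 and 18.7 CPM in challenged knockout libraries, against 45.3, 55.1 and 56.3 CPM in challenged wild-type libraries. Without challenge it measured 11, 12.7 and 13.4 CPM in knockout libraries, against 9.39, 12.2 and 11.2 CPM in wild-type libraries. The unchallenged genotypes overlapped and the challenged ones did not. The challenge response was 0.76 ± 0.14 on the log2 scale in knockout (edgeR adjusted p = 0.000974), against 2.36 ± 0.14 in wild-type (adjusted p = 1.19e-09), a difference of -1.6 ± 0.2 (adjusted p = 1.76e-05). After challenge the knockout level was 0.376 times that of wild-type (-1.41 ± 0.13, adjusted p = 5.01e-07), and without challenge the difference was 0.19 (95% interval -0.12 to 0.51).

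Gadd45a measured 20, 19.6 and 23.6 CPM in challenged knockout libraries, against 15.1, 16.3 and 14.9 CPM in challenged wild-type libraries. In unchallenged mice it measured 21.1, 19.4 and 20.9 CPM in knockout libraries, against 15.2, 13.8 and 14.2 CPM in wild-type libraries. All 6 knockout libraries stood above all 6 wild-type libraries. Gadd45a was 1.44-fold higher in knockout without challenge (log2 0.53 ± 0.09, edgeR adjusted p = 0.00134) and 1.28-fold higher after it (0.36 ± 0.09, adjusted p = 0.00521), and both calls held in all 20 alternatives. The challenge response was 0.03 in knockout (adjusted p = 0.828) and 0.2 in wild-type (adjusted p = 0.0731), and the wild-type response passed without challenged knockout replicate 3 (0.2, adjusted p = 0.0482). E230016M11Rik, a noncoding transcript of 0.447 to 2.99 CPM, overlaps exons of Gadd45a on the opposite strand, so some reads may be shared.

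Per length of exon, Gadd45b took 44.8% ± 3.2 of the GADD45 total in challenged knockout and 57.7% ± 0.37 in challenged wild-type libraries, and 27.8% ± 0.9 in unchallenged knockout and 37.3% ± 1.7 in unchallenged wild-type libraries (SD, n = 3 each). Gadd45a took 22.4% ± 4.4 in challenged knockout and 6.98% ± 0.7 in challenged wild-type libraries, and 37.9% ± 2.7 in unchallenged knockout and 29.4% ± 3.1 in unchallenged wild-type libraries. Gadd45g stayed within 32.8% to 35.3% in the group means. Gadd45b was thus the leading family member in challenged libraries of both genotypes, at 24.4 ± 4.67 CPM per kb in knockout and 72.8 ± 8.02 in wild-type. In unchallenged knockout libraries Gadd45a led with 11.6 ± 0.527 CPM per kb, against 10.5 ± 1.05 for Gadd45g, whose libraries overlapped with it. Gadd45b also led in unchallenged wild-type libraries, with 10.4 ± 0.917 CPM per kb, against 9.32 ± 1.21 for Gadd45g, again with overlapping libraries.

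**Figure D3:**
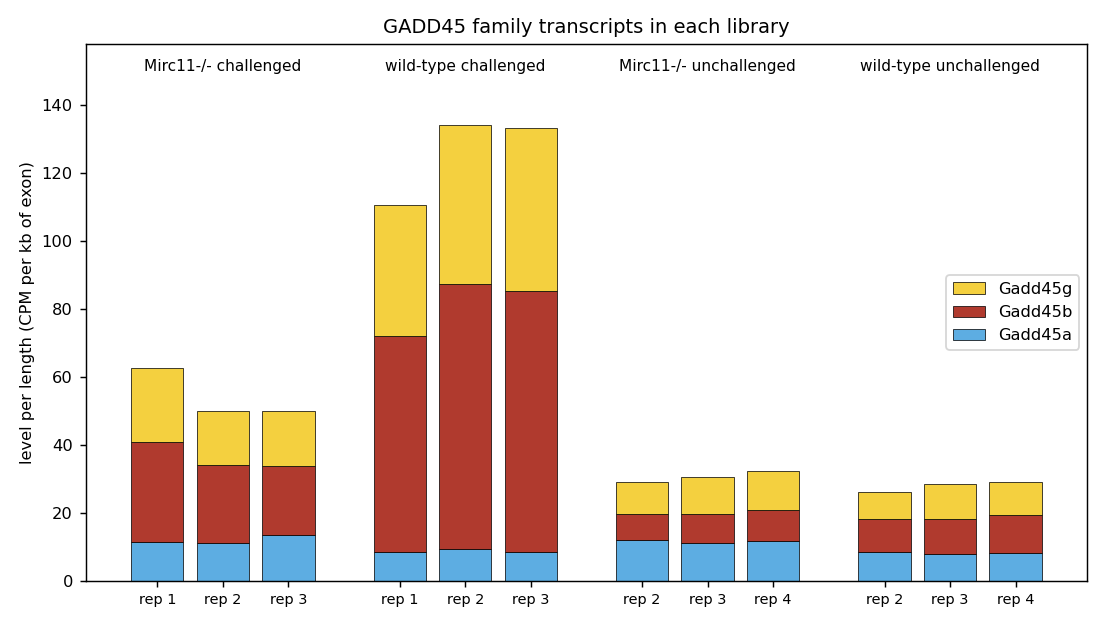
Level per length of exon (CPM per kb, vertical axis starting at 0) of the 3 GADD45 transcripts, stacked for each of the 12 libraries. Gadd45b made up 57.7% of the total in challenged wild-type libraries and 44.8% in challenged knockout libraries.

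Set side by side, the genotypes differed in 8 of the 10 transcripts after challenge and in 2 without it. After challenge Cdkn1a, Gadd45b, Gadd45g, Phlda3 and Mdm2 were lower in knockout, and Btg2, Trp53inp1 and Gadd45a higher, where 48.7% of all tested genes were called, 25.9% lower and 22.7% higher (4332 and 3792 genes, or 3361 and 4870 when scaled by column totals only). The median of the 10 was -0.22, against 0 over all tested genes. The challenged groups did not overlap for 4 lower and 3 higher transcripts, all of those named but Mdm2, against 53.6% of all tested genes, 22.3% lower and 31.4% higher. Without challenge Gadd45a and Sesn2 were higher in knockout and none was lower, by edgeR, by DESeq2 or at an unadjusted p under 0.05, where 11.7% of all tested genes were called, 6.64% higher and 5.07% lower, and the median of the 10 was 0.13, against -0.01. Unchallenged groups did not overlap for these 2 and for Gadd45b, which was lower, against 32.6% of all tested genes, 14.4% higher and 18.2% lower. Without the libraries in doubt, 7 transcripts were called after challenge and 1, Gadd45a, without it.

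**Figure D4:**
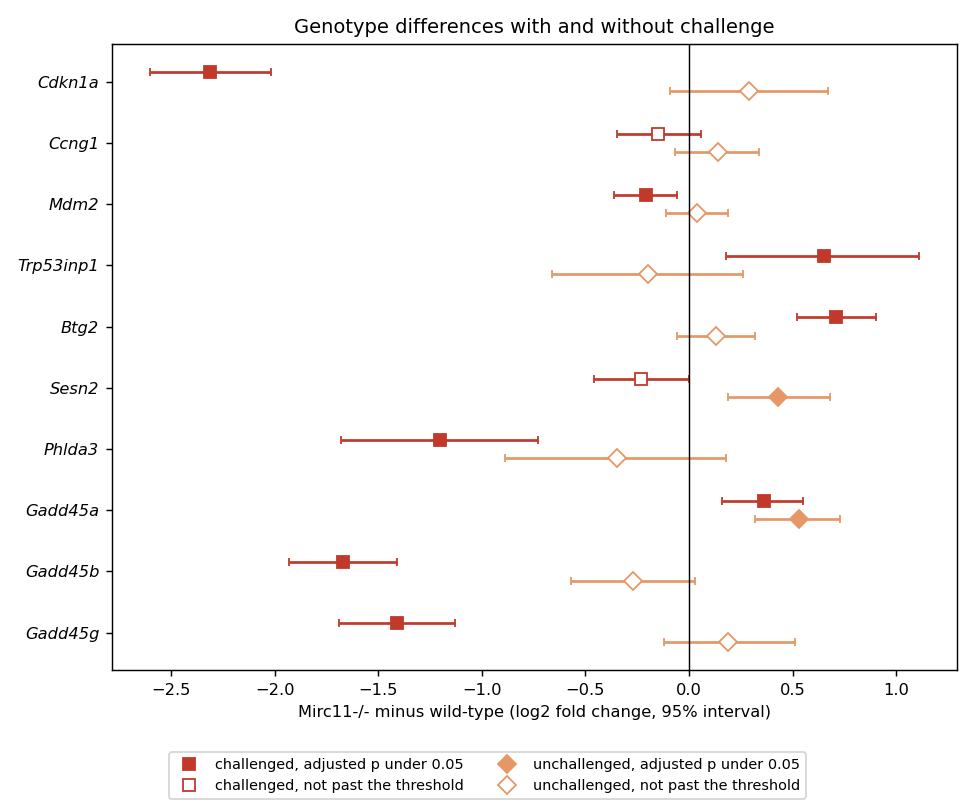
Mirc11-/- minus wild-type difference of each stress target on the log2 scale (horizontal axis) with its 95% interval, after challenge (squares) and without challenge (diamonds), filled where the adjusted p was under 0.05. Cdkn1a lies at -2.31 after challenge and at 0.29 without it, while Gadd45a lies at 0.36 after challenge and 0.53 without it.

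The 4 transcripts with a UTR match to the microRNAs of the cluster, Sesn2, Ccng1, Trp53inp1 and Btg2, showed no single direction between the genotypes. Without challenge their knockout minus wild-type differences were 0.43, 0.14, -0.2 and 0.13, and only that of Sesn2, which holds a match to each microRNA, passed. The Sesn2 call was lost in 6 of 20 alternatives. After challenge the differences were -0.23, -0.15, 0.65 and 0.71. Gadd45a, higher in knockout in both states, holds no match. Whether the microRNAs act on any of these transcripts was not tested.

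Of 20 genes that regulate p53, 17 were tested, and in knockout 3 were higher and 1 lower with challenge, against 4 higher and 7 lower in wild-type. These are 23.5% of the regulators in knockout and 64.7% in wild-type, close to the 27% and 63.4% of all tested genes. The median response was -0.01 in knockout and -0.13 in wild-type. The response differed for 23.5% of them, against 35.2% of all tested genes. It was lower in knockout for 2, the checkpoint kinases Chek1 (-1.09 ± 0.22, edgeR adjusted p = 0.0012) and Chek2 (-0.7 ± 0.13, adjusted p = 0.000795), and higher for 2, the ubiquitin ligase Rchy1 (0.4 ± 0.08) and Mdm4 (0.41 ± 0.1, adjusted p = 0.00392), a relative of Mdm2 that blocks p53. Mdm4 measured 457 ± 41 CPM in challenged knockout and 349 ± 13 in challenged wild-type libraries, and 478 ± 31 in unchallenged knockout and 525 ± 19 in unchallenged wild-type libraries. Trp53, the p53 gene itself, measured 137 ± 8.7 CPM in challenged knockout and 156 ± 9.9 in challenged wild-type libraries, and 132 ± 8.4 in unchallenged knockout and 139 ± 11 in unchallenged wild-type libraries. Its response was 0.05 in knockout (adjusted p = 0.693) and 0.27 ± 0.08 in wild-type (adjusted p = 0.00708), a call lost under upper-quartile scaling (0.16, adjusted p = 0.0809) and with column totals only (0.16, adjusted p = 0.0684), and the difference between the responses did not pass (-0.22, adjusted p = 0.138). Atm and Ppm1d, a damage kinase and a phosphatase that acts on p53, had differences of 0.14 and 0.06, which did not pass either.

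Of 39 other p53 targets, 12 were higher and 4 lower with challenge in knockout, against 19 higher and 11 lower in wild-type, with medians of 0.04 in knockout and 0.29 in wild-type. Called genes were 41% of the list in knockout and 76.9% in wild-type, against 27% and 63.4% of all tested genes. The response was lower in knockout for 13 and higher for 6, 33.3% and 15.4% of the list, against 18.5% and 16.7% of all tested genes, with a median difference of -0.22. Plk2, a stress-induced kinase gene, measured 14.3 ± 0.97 CPM in challenged knockout and 38.6 ± 2 in challenged wild-type libraries, and 3.09 ± 0.4 in unchallenged knockout and 4.72 ± 1.6 in unchallenged wild-type libraries (difference between responses -0.93 ± 0.24, edgeR adjusted p = 0.00738). The death receptor gene Fas measured 13.1 ± 1.4 CPM in challenged knockout and 38.8 ± 3.9 in challenged wild-type libraries, and 4.53 ± 0.085 in unchallenged knockout and 5.75 ± 1.9 in unchallenged wild-type libraries (difference -1.34 ± 0.24, adjusted p = 0.000442). Apaf1, the scaffold of the apoptosome, and the ribosomal protein-like gene Rps27l had differences of -0.82 ± 0.09 and -0.96 ± 0.1. The median wild-type response of both these targets and the 10 stress targets was above that of all genes.

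Of 18 relatives of the stress targets in their own families, 16 were tested, and 3 were higher and 1 lower with challenge in knockout, against 5 higher and 7 lower in wild-type. That is 25% in knockout and 75% in wild-type, where 27% and 63.4% of all tested genes were called. Cdkn2b, a cyclin-dependent kinase inhibitor gene of the INK4 family, had a response of 1.04 ± 0.27 in knockout and 2.8 ± 0.24 in wild-type (difference -1.76 ± 0.38, edgeR adjusted p = 0.00195), the same direction as Cdkn1a. The knockout response of Cdkn2b did not pass without challenged knockout replicate 2 (0.82, adjusted p = 0.0658). Sesn1, a sestrin like Sesn2, fell in wild-type by 0.54 ± 0.06 (adjusted p = 7.59e-07), the opposite direction, and its knockout response was -0.1 (adjusted p = 0.212).

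Of 15 genes that link GADD45 proteins to p38 and JNK, 2 were higher and 1 lower with challenge in knockout, against 7 higher and 5 lower in wild-type. Called genes made up 20% of the list in knockout and 80% in wild-type, against 27% and 63.4% of all tested genes. Mapk13, which encodes p38 delta, was scarce at 2.22 ± 0.46 CPM in challenged knockout and 5.42 ± 1.1 in challenged wild-type libraries, and 1.11 ± 0.54 in unchallenged knockout and 0.278 ± 0.13 in unchallenged wild-type libraries (difference between responses -3.38 ± 0.51, edgeR adjusted p = 0.000116). Mapkapk2, a kinase gene downstream of p38, rose in wild-type by 0.82 ± 0.08, against 0.19 ± 0.08 in knockout (difference -0.63 ± 0.11). The kinase genes Map2k7 and Map2k6, upstream of JNK and p38, fell in wild-type by 0.72 ± 0.06 and 1.17 ± 0.11, against knockout responses of -0.23 ± 0.06 and -0.26 ± 0.11. Over the 15, the response was lower in knockout for 6 and higher for 2, 40% and 13.3%, against 18.5% and 16.7% of all tested genes, with a median difference of 0.04.

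The partners and targets of p21 drive the cell cycle that p21 restrains. Of 17 genes, 10 were higher and 1 lower with challenge in knockout, against 16 higher in wild-type, where the other did not pass, with medians of 0.36 in knockout and 1.03 in wild-type. Higher ones were 58.8% of the list in knockout and 94.1% in wild-type, against 15.6% and 32.4% of all tested genes. The response was lower in knockout for 12 (70.6%, against 18.5% of all tested genes), and for 5 the difference did not pass. Pcna, the replication clamp to which p21 binds, measured 232 ± 11 CPM in challenged knockout and 310 ± 5.3 in challenged wild-type libraries, and 164 ± 7 in unchallenged knockout and 148 ± 8.7 in unchallenged wild-type libraries (difference between responses -0.68 ± 0.08, edgeR adjusted p = 1.45e-05). Cdk1, the mitotic kinase gene, measured 41 ± 1.2 CPM in challenged knockout and 56.7 ± 3.4 in challenged wild-type libraries, and 25.6 ± 2.4 in unchallenged knockout and 15.7 ± 2.4 in unchallenged wild-type libraries (difference -1.29 ± 0.14, adjusted p = 5.55e-06). The cyclin genes Ccnb1 and Ccnb2 had differences of -1.11 ± 0.15 and -1.46 ± 0.14. Transcripts of the inhibitor p21 and of its partners Pcna and Cdk1 were thus all highest in challenged wild-type libraries.

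**Figure D5:**
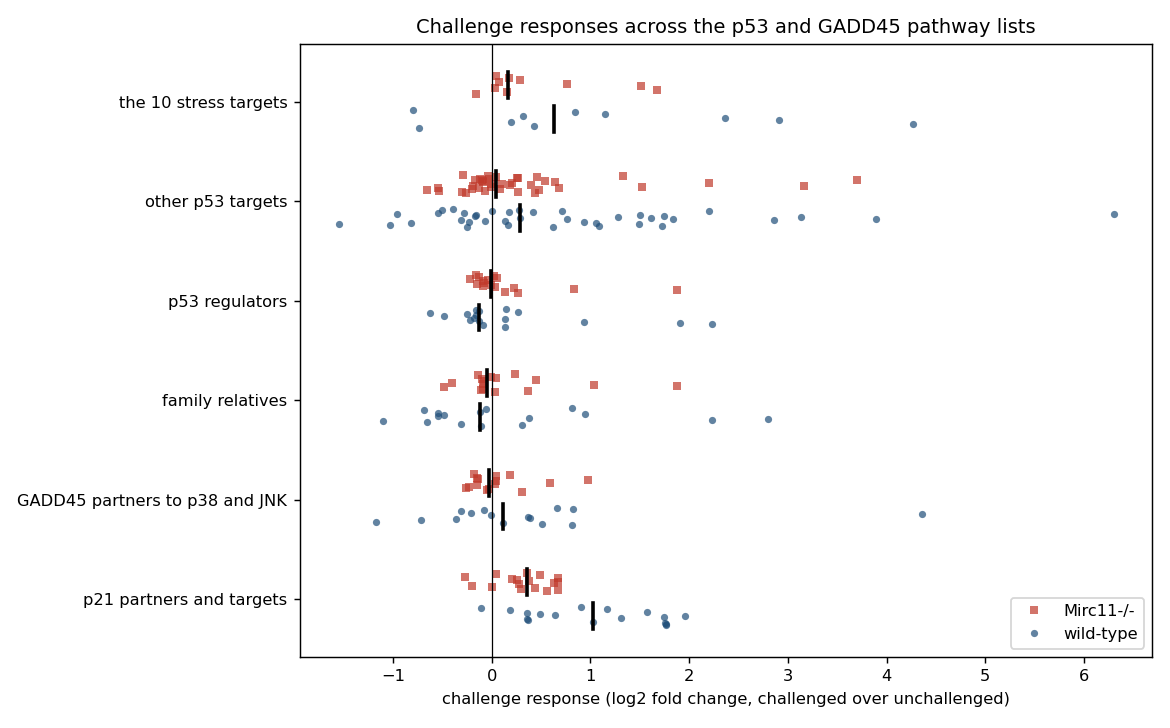
Challenge response (log2 fold change, horizontal axis) of each tested gene of the stress targets and of 5 related gene lists, in Mirc11-/- (upper row, squares) and wild-type (lower row, circles), with the median as a bar. The median of the p21 partners and targets was 0.36 in knockout and 1.03 in wild-type, and that of the p53 regulators was -0.01 in knockout and -0.13 in wild-type.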

How the data were processed

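RNA was extracted with Trizol and polyA RNA sequenced after Illumina TruSeq preparation, per the labels. RSEM 1.3.0 with Bowtie2 2.2.8, after bcl2fastq and Trim Galore 0.4.1, is named with GRCm38 in the submitters' processing notes; the annotation release, strand setting and rounding of RSEM's estimates were not given in the sources used here. Whole-number counts per gene and library, without normalization, were deposited. Levels are CPM from column totals, per kb of GENCODE vM21 exon where stated.

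Genes were filtered with filterByExpr (minimum count 10, total 15), scaled by TMM and fitted with a term per group in edgeR 4.0.16 (R 4.3.3). The test was the robust quasi-likelihood F test, with Benjamini-Hochberg adjustment over all 16694 genes within each comparison. It was tried on simulated data in which few genes changed, so that trial does not cover data with as many called genes as these. TMM factors were 0.949 to 0.954 in challenged wild-type libraries and 1.007 to 1.036 in the others, so fold changes differ slightly from ratios of CPM. DESeq2 1.42.0 (Wald test) was an alternative, and other tools were Python 3.11.15, numpy 2.4.6, pandas 2.3.3 and matplotlib 3.10.9. Intervals are at 95%. Total counts of 17624530 to 23665679 limit precision for scarce genes such as Phlda3. Within groups no pair of libraries was a duplicate, with squared differences of 3.38 to 25.8 times counting noise. Libraries of different groups were not compared in this way.

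Besides the 10 stress targets, genes were picked per list, plus Trp53, Mdm4, Atm and Ppm1d, and the text gives a selection of them and their values. The pick was the 4 genes with the smallest p in the wild-type response or, among called ones, in the difference between responses. Gtse1, Ckap2, Phlda1, Cdkn2c and Mapkapk3 met this rule and were left out above. Their differences between responses were -1.44, -1.01, -0.49, -0.48 and -0.84, and only that of Phlda1 did not pass. The genes, lists and tests were chosen with earlier results of these data known. Cop1 was not matched; Map2k7 was listed under 2 gene IDs, and the ID paired with it in GENCODE vM21 was used. Alternatives were other scalings, DESeq2, no filter, fewer groups, omitted libraries and replicate blocks.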

Additional observations from a re-analysis of the deposited data

Results flagged for a closer look

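For 6 of the 10 stress targets the challenge response differed between the genotypes by a test of the difference itself (edgeR quasi-likelihood F test, adjusted over all 16694 genes), where 35.2% of all tested genes were called. The knockout minus wild-type difference in log2 response was -2.6 for Cdkn1a, -1.6 for Gadd45g, -1.4 for Gadd45b, -0.66 for Sesn2, 0.58 for Btg2 and 0.84 for Trp53inp1. The first 5 kept their calls in all 19 alternatives and Trp53inp1 in 7 of 19. Sex-linked transcripts differ between challenged and unchallenged knockout libraries and cannot be told apart from the challenge there.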

How the results depend on the processing

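Of the alternative values for the 10 stress targets, 941 kept direction and call, 31 lost a call, 8 gained one and 10 changed sign. No called value changed sign. The count of genotype differences without challenge was 2, or 1 without both libraries in doubt. It ran from 1 to 2 when libraries were left out in turn, through loss of the Sesn2 call. The other counts ran from 9 to 10 (wild-type response), 3 to 3 (knockout response), 6 to 8 (genotypes after challenge) and 5 to 7 (difference between responses). Without both libraries in doubt these counts were 9, 4, 7 and 5, in the same order. The sign changes were of values near 0. The knockout response of Trp53inp1 was 0 (slightly negative) under upper-quartile scaling, -0.06 without challenged knockout replicate 2, -0.05 without replicate 3, -0.11 without unchallenged knockout replicate 4 and -0.06 without both libraries in doubt, with -0.11 to 0.23 over single omissions. That of Gadd45a was -0.01 under upper-quartile scaling, -0.05 without challenged knockout replicate 3, 0 without unchallenged knockout replicate 3 and -0.06 without both in doubt, with -0.05 to 0.1 over single omissions. The unchallenged genotype difference of Mdm2 was 0 without unchallenged knockout replicate 2 and 0 to 0.08 over single omissions, and the Ppm1d difference between responses was -0.01 without both in doubt. The titles carry 2 replicate numberings, and neither is stated to pair libraries. Residuals of same-numbered libraries correlated at -0.317 to 0.249 (the first) and -0.317 to 0.158 (the second). Differently numbered libraries were not compared, so these values cannot decide whether the numbers pair libraries. With a replicate block by either numbering the counts were 9 (wild-type response), 3 (knockout response), 2 (genotypes without challenge), 8 (genotypes after challenge) and 5 (difference between responses); the Trp53inp1 difference between responses had adjusted p = 0.076 and 0.0696, and no other stress target changed its call. The causes of these changes were not tested. Phlda3, at 25 to 113 counts, is the stress target most limited by depth.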

Other observations

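For the 4 stress targets that rose at least 2-fold in wild-type, the genes with the most similar course over the 12 libraries were looked up among the tested genes. Immunoglobulin and T cell receptor segments, predicted genes, clone-named genes and genes without a name were left out. Likeness was measured by the root mean squared difference in centred log2 CPM. The libraries share their groups, so this is a description. Nearest to Cdkn1a were Il2ra, the alpha chain of the interleukin-2 receptor (0.212), Sema7a (0.214) and the actin-bundling gene Fscn1 (0.235). Il2ra had a challenge response of 1.8 in knockout and 3.98 in wild-type. Nearest to Gadd45b were the interferon-induced Oas1a (0.121), Marcksl1 (0.137) and the nucleic acid sensor Zbp1 (0.161). Oas1a had a response of 1.6 in knockout and 2.66 in wild-type. Nearest to Gadd45g were the cathepsin gene Ctsz (0.139), Ehd1 (0.143) and Smagp (0.171), and nearest to Phlda3 were Il4i1 (0.188), Adap1 (0.189) and the tubulin gene Tubb6 (0.207). None of these neighbours is on the lists of other p53 targets or GADD45 partners used here. Those lists hold only 39 and 15 of the 16694 tested genes, so a neighbour was unlikely to be on them in any case.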
